A study of Mus musculus with 18 samples.

Results

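The genes described here carry glucose into the cell, split it to pyruvate, and send the pyruvate on to lactate or into the mitochondrion. They were chosen by symbol from a list of 32 glycolysis and pyruvate handling genes, and all 32 were found among the 23951 gene rows used. Naive CD4 T cells, sorted from C57BL/6 mice as CD4-positive and CD25-negative cells with high CD62L, were profiled by RNA sequencing in 6 genotypes with 3 libraries each. Levels are RPKM, the reads of a gene divided by its transcript length and by the library size. The wild-type mice (WT) carried neither a transgene nor a deletion, per their labels. The cluster Tg mice carried a transgene for the miR-232724 cluster, a group of microRNAs made from 1 primary transcript. A transgene for a single family member was carried by each of 3 further genotypes (miR-27 Tg, miR-24 Tg and miR-23 Tg), and the DKO mice were double knockouts of the cluster. The labels give no age, no promoter or Cre driver for the transgenes or deletions, and no statement that each library came from its own animal. The spread behind each p-value is therefore that between the deposited libraries, and may be technical in part.

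Glycolysis converts glucose to pyruvate in the cytosol through transporters, kinases, an aldolase, and the payoff enzymes that yield ATP and NADH. Pyruvate is then either reduced to lactate by lactate dehydrogenase or carried into mitochondria and oxidised by the pyruvate dehydrogenase complex, which the pyruvate dehydrogenase kinases switch off. Naive T cells are known to rest mainly on mitochondrial oxidation and to turn to glycolysis with lactate export after activation. MicroRNAs lower transcripts mainly through short matches between their seed, bases 2 to 8, and the 3′ UTR.

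The 3 mature microRNAs are shown because the matches searched in the members' transcripts are set by their seeds, which stand in capitals. Sequences are from RefSeq (GRCm38.p6), where Mir23a, Mir27a and Mir24-2 lie together on chromosome 8. The seeds of miR-23a and miR-27a share their first 5 bases, and the seed of miR-24 is unlike both.
miR-23a: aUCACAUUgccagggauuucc
miR-27a: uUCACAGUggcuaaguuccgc
miR-24: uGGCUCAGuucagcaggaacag

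The transgenes were visible in the table as reads over the hairpin genes. Mir27a was at 131, 194 and 95.6 RPKM in WT, at 172309, 67414 and 35501 in cluster Tg, and at 216755, 234933 and 27981 in miR-27 Tg. Mir23a was between 64024 and 74236 RPKM in miR-23 Tg and Mir24-2 between 13888 and 49237 in miR-24 Tg, against at most 280 and 46.0 in WT. Each library labelled as a transgenic was thus high for its own hairpin, while WT was low. In DKO Mir27a was at 36.3 and 39.5 RPKM and listed at 0 in replicate 3, below WT. Mir23a was listed at 0 in DKO replicates 1 and 2 and at 76.1 RPKM in replicate 3, and since WT replicate 3 was itself listed at 0 the genotypes overlapped for this hairpin. Mir24-2 was listed at 0 in all 3 DKO libraries.

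In these sorted cells CD4 T cell markers were high throughout, with a summed level over 11 of 13 listed genes between 4412 and 7927 RPKM. The first principal component set miR-27 Tg replicate 3 and DKO replicate 3 apart, at 122.5 and 51.3 against -20.8 to -0.317 in the other 16 libraries. In these 2 libraries the mean over ribosomal protein genes, read here as a sign of library quality, was 1312 and 917 RPKM. Results of the members that rest on them are given with and without them. Calls in the marker lists and in the other pathway lists are given with them only. That mean also moved with genotype, at 496 to 516 RPKM in WT, 233, 291 and 355 in cluster Tg, 398 to 415 in miR-24 Tg, 414 to 470 in miR-23 Tg, 354 and 334 in miR-27 Tg replicates 1 and 2, and 496 and 440 in DKO replicates 1 and 2. In cluster Tg the median log2 change of the 79 ribosomal protein genes tested was -0.65, and 4 of them were above 0. Markers of other cells moved with genotype. For the counts that follow, 5.63% of all genes tested were called higher and 2.85% lower in cluster Tg. These shares were 2.32% and 1.26% in miR-24 Tg, and 5.77% and 3.18% in miR-27 Tg. Of 14 effector and memory T cell genes, 12 were higher in cluster Tg and 10 each in miR-24 Tg and miR-27 Tg, with summed levels of 479 to 931, 389 to 638 and 284 to 706 RPKM against 159 to 204 in WT. Of 12 B cell genes tested, 1 was called higher in cluster Tg, 8 in miR-24 Tg and 12 in miR-27 Tg, and in each of these genotypes all 12 had a log2 change above 0. The sum over the 13 listed genes was 96.2 to 185 RPKM in cluster Tg and 141 to 546 in miR-24 Tg, against 22.7 to 34.4 in WT. It reached 1102 RPKM in miR-27 Tg replicate 3. Of 9 myeloid genes tested, 7 were higher in miR-27 Tg, with the sum over the 10 listed at 94.7, 129 and 825 RPKM against 52.7 to 65.4 in WT, where S100a8 and Ngp were listed at 0. In cluster Tg 2 of the 9 were called higher, Itgam and Ccr2, and all 9 had a log2 change above 0, with sums of 72.7 to 85.3 RPKM. In miR-24 Tg 0 of the 9 were called, yet all 9 were above 0 with a median of 1.83. The sums there were 256, 115 and 89.5 RPKM. Of 5 CD8 T and NK cell genes tested, 2 were higher and 1 lower in cluster Tg, 2 higher in miR-24 Tg, and 2 higher and 1 lower in miR-27 Tg. Cd8a rose in all 3, by 2.43, 1.83 and 2.25. The gene called lower was Ctsw, with changes of -1.13 for the whole cluster and -2.07 for miR-27 alone. The sum over the 7 listed CD8 T and NK cell genes was 82.5 to 99.5 RPKM in WT. Cluster Tg, at 73.2 to 100 RPKM, and miR-27 Tg, at 48.4 to 115, overlapped this range. Every miR-24 Tg library lay above it, at 149 to 156 RPKM. Of 13 proliferation genes, 4 were higher and 1 lower in cluster Tg, 1 was lower in miR-24 Tg and 5 were higher in miR-27 Tg. Their sum was 239 to 259 RPKM in cluster Tg, 203 to 235 in miR-24 Tg and 245 to 313 in miR-27 Tg. These ranges overlapped the 199 to 272 of WT. The sum over 6 erythroid and platelet genes was 3.36, 285 and 522 RPKM in miR-27 Tg, against 0.854 to 26.0 in WT, and Pf4 and Ppbp were listed at 0 in both. In bulk RNA fewer cells of a type cannot be told apart from less RNA per cell. The part of these other cells and of library quality in the results below was not tested.

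Pdk1, the pyruvate dehydrogenase kinase that made up most of the kinase RNA of these cells, was the member that changed most clearly with the microRNAs. It fell with the whole cluster, with miR-27 alone and, by less and less securely, with miR-24 alone. The changes of the other members were few. Genes were tested with limma on log2(RPKM + 1), so that folds of low genes are understated, and called at a Benjamini-Hochberg adjusted p under 0.05 over the 11099 genes at 1 RPKM or more in at least 3 libraries. Of the 32 members 31 passed this filter, and Hk2 did not. In cluster Tg against WT, 4 of 31 members were called, 3 higher (Aldoc, Pgam1 and Eno2) and 1 lower (Pdk1), where 8.48% of all genes tested were called (5.63% higher and 2.85% lower). In miR-27 Tg against WT, 4 of 31 were called, Aldoc and Eno2 higher and Pdha1 and Pdk1 lower, against a background of 8.95% (5.77% higher and 3.18% lower). Eno2 reached 1 RPKM in 7 libraries, all of them transgenic, and so entered the test through the genotypes where it was high. In miR-24 Tg against WT, 2 of 31 were called, Hk1 and Pdk1, both lower, against 3.59% (2.32% higher and 1.26% lower). The members' shares in these comparisons were near or a little above the background, so the counts alone mark nothing particular to these genes.

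In miR-23 Tg against WT 0 of 31 members were called by limma (background 0.045%, of which 0.00901% higher and 0.036% lower), and 2 were under an unadjusted p of 0.05, Pgam1 and Slc16a1. In DKO against WT 0 of 31 were called (background 0%), and 0 were under an unadjusted p of 0.05. In cluster Tg against DKO 5 of 31 were called (background 11.3%, of which 7.14% higher and 4.2% lower), the 4 genes called against WT and the glucose transporter Slc2a3. An F test over the 6 genotypes called 9 members (background 19%): Slc2a3, Hk1, Aldoc, Pgk1, Pgam1, Eno2, Slc16a3, Pdha1 and Pdk1. Like Eno2, Slc16a3 passed the filter largely through genotypes where it was higher. The comparisons against WT share its 3 libraries and are therefore not independent of each other. The median log2 change of the members was 0.05 in cluster Tg, 0.03 in miR-23 Tg, -0.05 in miR-24 Tg, 0.15 in miR-27 Tg and 0.02 in DKO, against 0 to 0.03 for all genes tested. Libraries lying wholly above or below WT were common in the transgenics. In cluster Tg 2457 of the 11099 genes tested lay wholly above WT and 2291 wholly below. Of the 31 members these were 7 and 5. In miR-24 Tg the numbers were 1944 and 1773 genes, and 4 and 9 members. In miR-27 Tg they were 1669 and 1362 genes, and 11 and 3 members. In miR-23 Tg they were 1690 and 1514 genes, and 3 and 8 members. DKO had fewer, at 271 and 280 genes, and 0 and 2 members. A lack of overlap with WT is therefore given below as a description only.

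**Figure D1:**
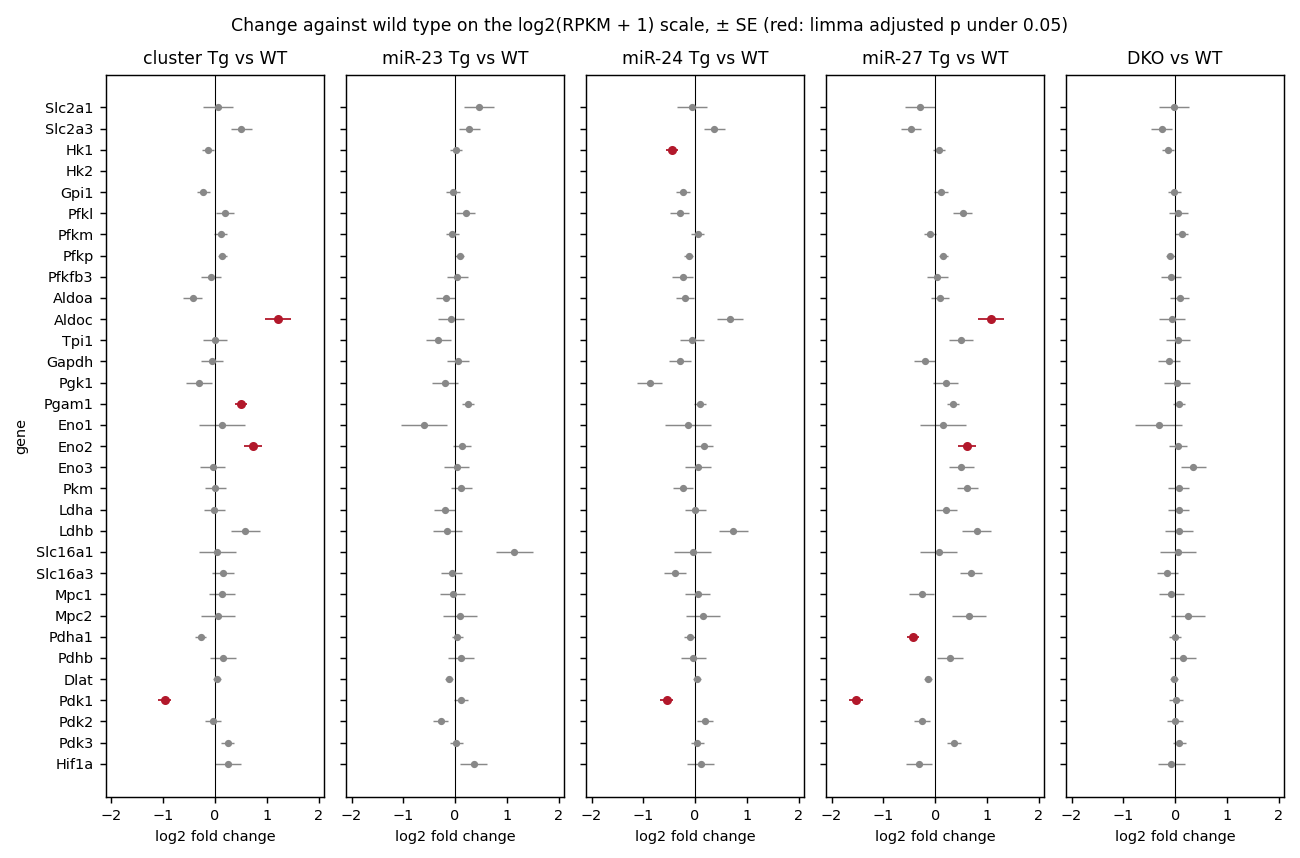
Change of each member against WT on the log2(RPKM + 1) scale (x axis) with its SE, 1 panel per genotype; red points passed limma's adjusted p under 0.05 and Hk2, which was not tested, has no point. Pdk1 is lower in 3 panels, at -0.97 in cluster Tg, -0.55 in miR-24 Tg and -1.53 in miR-27 Tg, and no member is red in miR-23 Tg or DKO.

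Without the 2 libraries that stood apart, more genes were called in each of the comparisons with WT. Then 9 members were called in cluster Tg (29.2% of all genes), 9 in miR-24 Tg (17.5%), 9 in miR-27 Tg (19.9%), 0 in miR-23 Tg (3.97%) and 0 in DKO (0.0181%). In cluster Tg these were Slc2a3, Aldoc, Pgam1, Eno2 and Ldhb higher and Gpi1, Aldoa, Pdha1 and Pdk1 lower. In miR-24 Tg Ldhb was higher and Hk1, Gpi1, Pfkl, Pfkfb3, Gapdh, Pgk1, Pkm and Pdk1 were lower. In miR-27 Tg Hk1, Pfkfb3, Aldoc, Pgam1, Pkm and Ldhb were higher and Pdha1, Pdk1 and Pdk2 were lower.

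**Figure D2:**
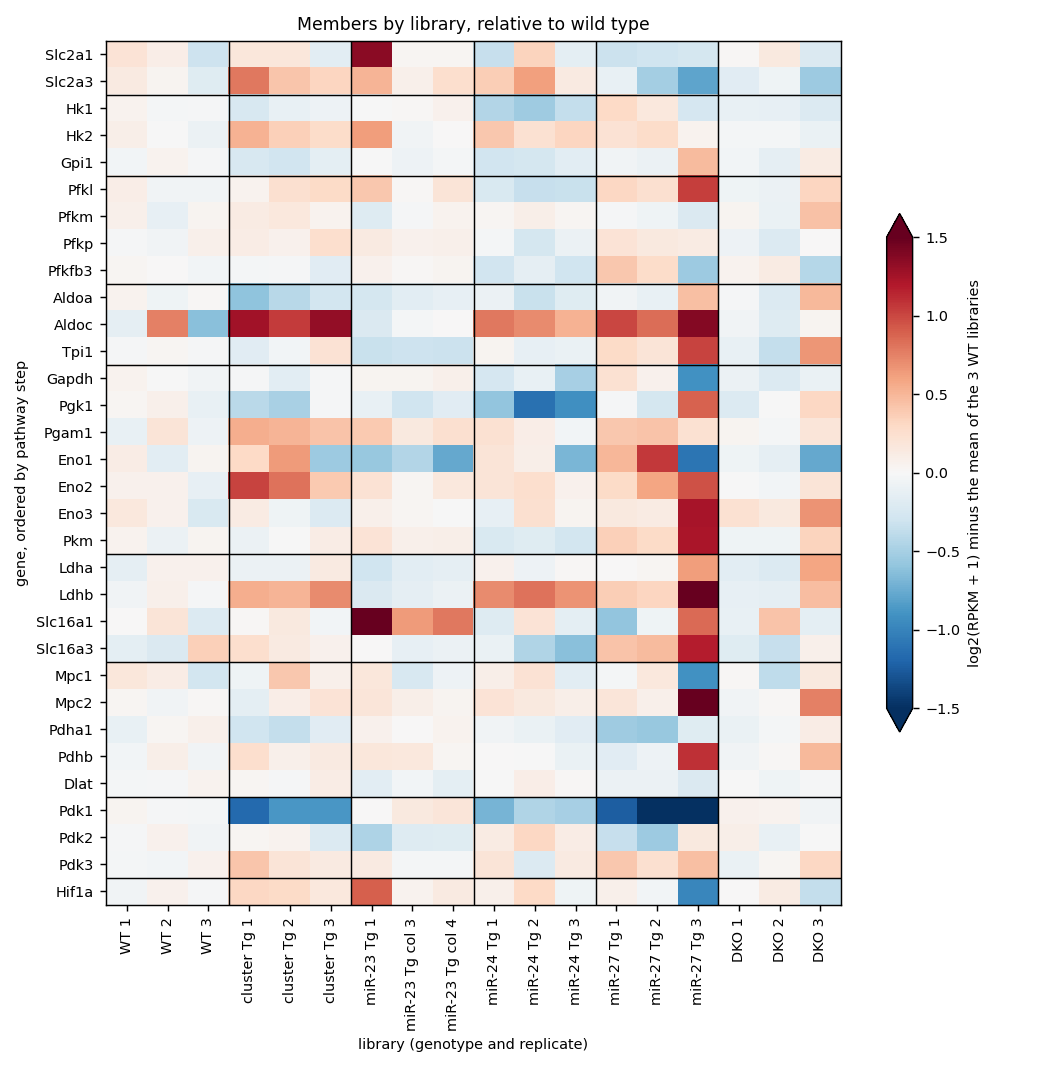
Log2(RPKM + 1) of the 32 members (rows, in pathway order) in 18 libraries (columns), minus the mean of the 3 WT libraries; colour is held at 1.5 in either direction. The Pdk1 row is blue in all libraries of miR-27 Tg, miR-24 Tg and cluster Tg, and miR-27 Tg replicate 3 stands out in many rows, as the highest library for 13 members and the lowest for 9.

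Glucose enters lymphocytes through Slc2a1 (GLUT1) and Slc2a3 (GLUT3), which were present at like levels. Slc2a3 was at 20.4, 19.2 and 16.3 RPKM in WT, 32.6, 25.1 and 23.4 across cluster Tg, 26.7, 19.7 and 22.2 in miR-23 Tg, 24.2, 28.8 and 20.5 in miR-24 Tg, 17.1, 12.7 and 10.3 in miR-27 Tg, and 16.3, 17.6 and 12.4 in DKO. All cluster Tg and miR-24 Tg libraries lay above WT, while miR-27 Tg and DKO overlapped it from below. Slc2a3 was higher in cluster Tg than in DKO (log2 change 0.77, SE 0.20, limma adjusted p = 0.0211), and 0.63 without the 2 libraries that stood apart (adjusted p = 0.0244). Leaving out DKO replicate 3 alone, or cluster Tg replicate 1, ended that call. Against WT its change in cluster Tg was 0.51 (SE 0.20, limma adjusted p = 0.144), and its call over the 6 genotypes had an adjusted p of 0.0123. Slc2a1 did not follow it. Its libraries ranged from 19.3 to 31.7 RPKM apart from miR-23 Tg replicate 1 at 65.1, while the other miR-23 Tg libraries were both at 25.4. That library was also the highest for the lactate and pyruvate transporter Slc16a1 (30.9 RPKM), for Hif1a (64.7) and for Hk2 (0.785). As a share of the 2 glucose transporters, Slc2a1 was 57.3% ± 1.92 in WT, 49.2% ± 3.38 across cluster Tg and 49.6% ± 4.51 in miR-24 Tg (SD, n = 3), and neither transgenic range overlapped WT.

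Hexokinase traps glucose in the cell as glucose-6-phosphate, and Hk1 carried 98.5% to 99.8% of the summed Hk1 and Hk2 level in every library. Hk1 was at 52.2, 49.3 and 49.9 RPKM in WT, 42.6, 46.7 and 47.8 across cluster Tg, 50.1, 50.9 and 52.6 in miR-23 Tg, 36.9, 34.6 and 39.1 in miR-24 Tg, 62.3, 56.4 and 42.4 in miR-27 Tg, and 46.6, 46.4 and 43.6 in DKO. The miR-24 Tg libraries were the 3 lowest of all 18, and their difference from WT was -0.44 (SE 0.12, limma adjusted p = 0.0490). This call sat at the threshold and was lost in 20 of 26 alternatives, with adjusted p from 0.000615 to 0.170, among them those leaving out any 1 of the WT, miR-24 Tg, cluster Tg, miR-23 Tg or DKO libraries. Hk2, the isozyme known to be induced on T cell activation, stayed under 1 RPKM in all 18 libraries. It was at 0.0911 to 0.232 RPKM in WT, 0.402 to 0.655 in cluster Tg and 0.357 to 0.526 in miR-24 Tg, so both lay above WT at a level too low for the test. Gpi1, which isomerises glucose-6-phosphate, was at 113, 121 and 115 RPKM in WT and 98.5, 95.0 and 105 in cluster Tg. Its difference there was -0.22 (SE 0.13, limma adjusted p = 0.394).

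Phosphofructokinase commits the sugar to glycolysis, and Pfkp gave the largest share of its 3 subunits in 17 of 18 libraries, 55.0% ± 1.96 of their summed level in WT (SD, n = 3). Pfkp varied little, between 30.2 and 43.4 RPKM, and Pfkm between 7.53 and 12.4. Pfkl was at 22.4, 20.1 and 20.1 RPKM in WT, 17.7, 16.2 and 16.4 in miR-24 Tg, and 26.2, 24.7 and 43.7 in miR-27 Tg. The 3 miR-24 Tg libraries were below WT and the 3 miR-27 Tg libraries above it, with changes of -0.30 (SE 0.18, limma adjusted p = 0.555) and 0.53 (SE 0.18, adjusted p = 0.0920). The miR-27 Tg difference was 0.28 (SE 0.10, limma adjusted p = 0.0808) without the 2 libraries that stood apart. Pfkfb3, which makes the activator fructose-2,6-bisphosphate, ranged from 12.0 to 24.3 RPKM, both ends lying in miR-27 Tg. Over all libraries none of the 4 genes was called in any of the 6 comparisons of a pair of genotypes. Without the 2 libraries that stood apart, Pfkl (-0.30, limma adjusted p = 0.0433) and Pfkfb3 (-0.24, adjusted p = 0.0181) were lower in miR-24 Tg, Pfkfb3 was higher in miR-27 Tg (0.34, adjusted p = 0.00534), and Pfkp was higher in cluster Tg than in DKO (0.28, adjusted p = 0.0186).

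Aldolase splits the hexose into a pair of trioses, and the ubiquitous isozyme Aldoa stood at 135 to 289 RPKM. Aldoc, better known from brain, was scarce in WT at 1.26, 3.19 and 0.613 RPKM. It was at 4.94, 4.14 and 5.21 across cluster Tg, 1.14, 1.42 and 1.49 in miR-23 Tg, 3.31, 3.04 and 2.56 in miR-24 Tg, 3.99, 3.44 and 5.43 in miR-27 Tg, and 1.40, 1.17 and 1.56 in DKO. The cluster Tg and miR-27 Tg libraries all lay above the highest WT library, and the WT libraries themselves differed widely. Aldoc rose in cluster Tg by 1.21 (SE 0.25, limma adjusted p = 0.00833), against DKO by 1.28 (SE 0.25, adjusted p = 0.00504), and in miR-27 Tg by 1.07 (SE 0.25, adjusted p = 0.0171). In miR-24 Tg its change was 0.67 (SE 0.25, limma adjusted p = 0.202). The miR-27 Tg call was lost in 4 of 26 alternatives (adjusted p up to 0.362), among them leaving out WT replicate 1, leaving out WT replicate 3 and fitting the compared genotypes alone. The cluster Tg calls held in all 26. Without the 2 libraries that stood apart the miR-27 Tg value was 0.92 (SE 0.28, adjusted p = 0.0387). Aldoa was at 214, 197 and 209 RPKM in WT and 135, 155 and 170 in cluster Tg, a difference of -0.43 (SE 0.18, limma adjusted p = 0.178). Aldoc was thus 0.824% ± 0.682 of the aldolase level in WT and 3.03% ± 0.457 in cluster Tg (SD, n = 3). Tpi1, the triose isomerase, ranged from 13.4 to 36.1 RPKM, with miR-27 Tg replicate 3 at the top.

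The payoff enzymes run from Gapdh to pyruvate kinase, and several of them share sequence with other genes of the mouse genome. Of the 50-base windows of its longest transcript, 82.5% in Gapdh, 72.2% in Eno1, 68.0% in Pgk1, 41.5% in Pgam1 and 34.4% in Pkm also occurred in transcripts of another gene. For Pdhb this share was 30.3%, for Ldhb 27.0%, for Mpc1 23.2%, for Gpi1 19.3%, for Ldha 16.6% and for Aldoa 13.5%, and for Slc2a3, Hk1, Aldoc and Pdk1 it was 0. The sources used here do not give how the reads of such windows were counted, so the levels of these genes are uncertain. Gapdh, usually among the most abundant transcripts of a cell, was deposited at only 7.81 to 18.4 RPKM, Pgk1 at 1.39 to 8.57 and Pgam1 at 0.704 to 1.68. By contrast Pkm stood at 150 to 427 RPKM.

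**Figure D3:**
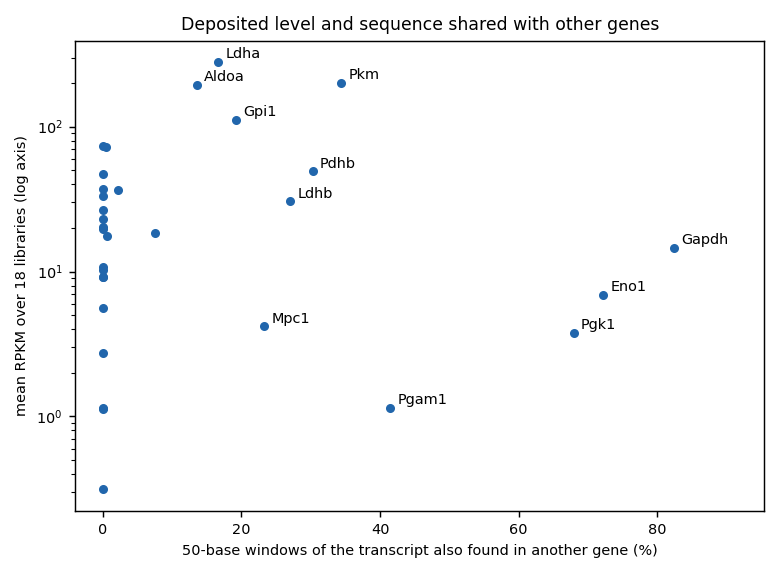
Share of the 50-base windows of each member's transcript that also occur in a transcript of another gene (x axis, percent) against its mean RPKM over 18 libraries (y axis, log). Gapdh, Eno1 and Pgk1 have the highest shares, at 82.5%, 72.2% and 68.0%, and mean levels of 14.6, 6.90 and 3.76 RPKM.

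Among the payoff enzymes the enolase isozyme Eno2, known as the neuronal enolase, was at 0.781, 0.774 and 0.557 RPKM in WT, 2.43, 2.00 and 1.22 across cluster Tg, 0.980, 0.737 and 0.905 in miR-23 Tg, 0.951, 1.02 and 0.772 in miR-24 Tg, 1.07, 1.56 and 2.29 in miR-27 Tg, and 0.696, 0.659 and 0.949 in DKO. It stayed under 1 RPKM in WT and DKO and passed the filter through the genotypes where it was higher, so its presence among the genes tested is itself tied to that difference. Its differences from WT, 0.61 in miR-27 Tg and 0.74 with the whole cluster, are given as a description, and its place in the counts of called members is not read as support. In miR-27 Tg the difference was 0.44 without replicate 3. Pgam1, a phosphoglycerate mutase, was at 0.704, 1.11 and 0.742 RPKM in WT and at 1.68, 1.62 and 1.48 in cluster Tg, with no overlap. Its rise in cluster Tg was 0.49 (SE 0.12, limma adjusted p = 0.0162), at a level near 1 RPKM. In miR-23 Tg it was at 1.41, 1.03 and 1.18 RPKM, in miR-24 Tg at 1.16, 0.970 and 0.786, in miR-27 Tg at 1.43, 1.47 and 1.15, and in DKO at 0.902, 0.810 and 1.08. Quantile normalisation ended this call, at 0.31, as did leaving out WT replicate 1, WT replicate 3, cluster Tg replicate 1 or cluster Tg replicate 2.

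Pgk1, the phosphoglycerate kinase, was at 4.29, 4.49 and 3.82 RPKM in WT, 2.91, 2.70 and 4.11 across cluster Tg, 3.79, 3.22 and 3.63 in miR-23 Tg, 2.44, 1.39 and 1.75 in miR-24 Tg, 4.13, 3.34 and 8.57 in miR-27 Tg, and 3.51, 4.17 and 5.44 in DKO. The miR-24 Tg libraries were the 3 lowest of the 18. Their difference from WT was -0.88 (SE 0.24, limma adjusted p = 0.0660), and -0.88 (SE 0.15, adjusted p = 0.00215) in the fit without the 2 libraries that stood apart. Pkm, the pyruvate kinase, was at 189, 171 and 187 RPKM in WT, 156, 160 and 150 in miR-24 Tg, and 234, 223 and 427 in miR-27 Tg. Every miR-24 Tg library was below WT and every miR-27 Tg library above it. In the fit of all libraries the miR-27 Tg change was 0.62 (SE 0.20, limma adjusted p = 0.0677), and without the 2 libraries it was 0.32 (SE 0.07, adjusted p = 0.0101). Eno1 ranged from 2.76 to 15.7 RPKM and Eno3 from 14.4 to 41.3, and in Eno1 both ends lay in miR-27 Tg.

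**Figure D4:**
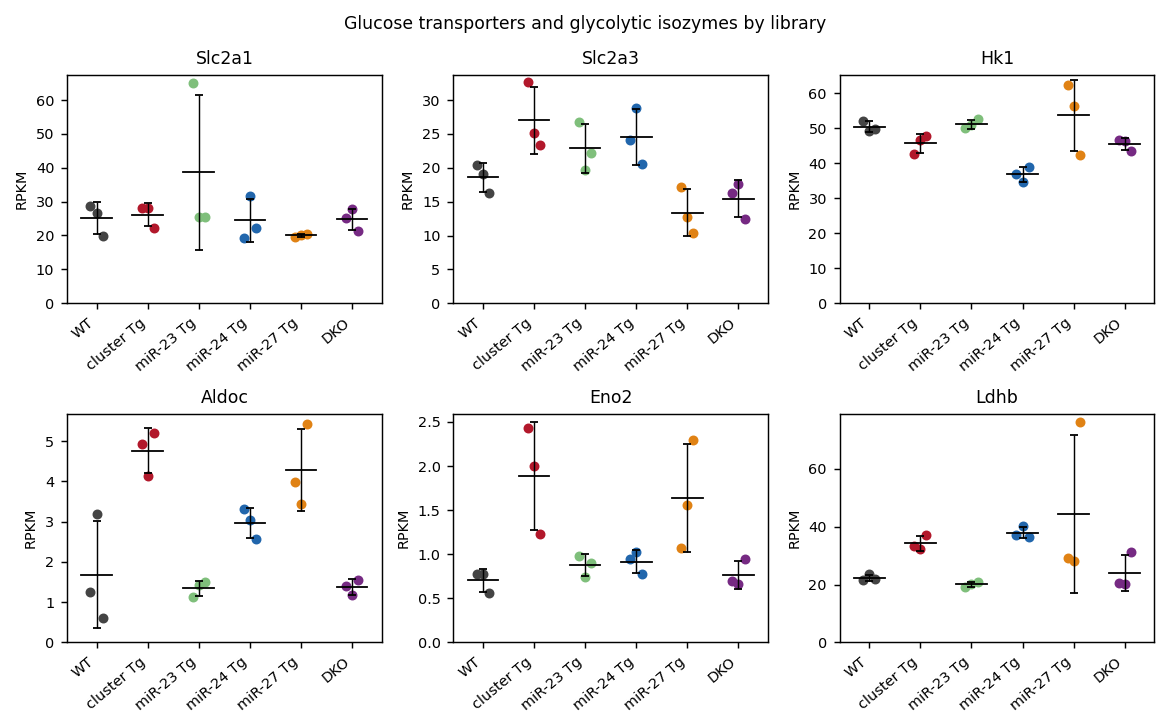
RPKM (y axis, from 0) of 2 glucose transporters, a hexokinase and 3 isozymes in each of the 3 libraries per genotype; lines are means and bars SDs. Aldoc and Eno2 are higher in cluster Tg than in WT in every library, Hk1 is lowest in miR-24 Tg, and single libraries stand out for Slc2a1 in miR-23 Tg (65.1) and Ldhb in miR-27 Tg (76.1).

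Lactate dehydrogenase converts pyruvate and lactate into each other, and Ldha, the form that dominates in activated T cells, was on average the most abundant member at 220 to 420 RPKM. Its changes against WT were small, from -0.20 in miR-23 Tg to 0.22 in miR-27 Tg with an SE of 0.20. Ldhb, the heart form, was at 21.6, 23.6 and 22.0 RPKM in WT, 33.3, 32.3 and 37.1 across cluster Tg, 19.1, 20.3 and 20.9 in miR-23 Tg, 37.2, 40.3 and 36.4 in miR-24 Tg, 29.1, 28.3 and 76.1 in miR-27 Tg, and 20.5, 20.4 and 31.3 in DKO. All libraries of miR-27 Tg, miR-24 Tg and cluster Tg lay above WT, and miR-27 Tg replicate 3 lay far above the rest. Over all libraries no comparison called Ldhb, with changes of 0.59 in cluster Tg (SE 0.28, limma adjusted p = 0.255), 0.74 in miR-24 Tg (SE 0.28, adjusted p = 0.202) and 0.80 in miR-27 Tg (SE 0.28, adjusted p = 0.0924). Without the 2 libraries that stood apart it was called higher in all 3, by 0.59 (SE 0.06, adjusted p = 6.03e-05), 0.74 (SE 0.06, adjusted p = 7.14e-05) and 0.34 (SE 0.07, adjusted p = 0.00535). Its share of lactate dehydrogenase was 7.60% ± 0.423 in WT, 11.2% ± 0.244 in cluster Tg, 12.2% ± 1.09 in miR-24 Tg, 11.4% ± 3.41 in miR-27 Tg, 7.80% ± 0.148 in miR-23 Tg and 7.62% ± 0.456 in DKO (SD, n = 3). The share in the 3 former transgenics did not overlap that in WT, and the shares in miR-23 Tg and DKO did.

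Lactate leaves the cell through the monocarboxylate transporters Slc16a1 (MCT1) and Slc16a3 (MCT4). Slc16a1 was at 7.05, 8.15 and 5.96 RPKM in WT and at 30.9, 11.5 and 12.9 in miR-23 Tg, all 3 above WT. The difference was 1.14 (SE 0.36), with an unadjusted limma p of 0.00623 and an adjusted p of 0.357. In the other genotypes Slc16a1 ranged from 4.32 to 13.5 RPKM. Slc16a3 was low, at 0.807, 0.718 and 1.55 RPKM in WT, 1.38, 1.19 and 1.09 across cluster Tg, 1.00, 0.835 and 0.879 in miR-23 Tg, 0.867, 0.456 and 0.293 in miR-24 Tg, 1.69, 1.77 and 3.50 in miR-27 Tg, and 0.757, 0.566 and 1.10 in DKO. It reached 1 RPKM in 8 libraries, mostly of cluster Tg and miR-27 Tg, and so entered the test largely through genotypes with a higher mean. Its F test over the 6 genotypes (limma adjusted p = 0.0226) is therefore given as a description and not read as support. In miR-27 Tg its difference from WT was 0.69 (SE 0.21, limma adjusted p = 0.0531). That difference was 0.45 (SE 0.18, limma adjusted p = 0.0954) without the 2 libraries that stood apart.

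Pyruvate enters the mitochondrion through a carrier made of Mpc1 and Mpc2, and no comparison called either. Mpc2 was at 27.7, 26.3 and 27.6 RPKM in WT and between 24.4 and 31.6 in the other genotypes, apart from miR-27 Tg replicate 3 at 92.6 and DKO replicate 3 at 46.5. Mpc1 was at 3.30 to 4.89 RPKM in WT and 1.78 to 5.93 over all libraries. The pyruvate dehydrogenase complex is built from the E1 subunits Pdha1 and Pdhb and the E2 subunit Dlat. Pdha1 was at 72.9, 80.9 and 83.5 RPKM in WT, 64.2, 61.6 and 69.9 across cluster Tg, 82.8, 79.5 and 82.3 in miR-23 Tg, 76.3, 73.7 and 69.9 in miR-24 Tg, 54.2, 53.0 and 69.5 in miR-27 Tg, and 73.8, 77.4 and 85.7 in DKO. Cluster Tg and miR-27 Tg were below WT in every library. Pdha1 fell in miR-27 Tg by 0.43 (SE 0.11, limma adjusted p = 0.0248), and by 0.55 without the 2 libraries that stood apart (SE 0.07, adjusted p = 0.000351). In cluster Tg its change was -0.27 (SE 0.11, adjusted p = 0.158). The miR-27 Tg call was lost on leaving out WT replicate 2, WT replicate 3, miR-27 Tg replicate 1 or miR-27 Tg replicate 2. Pdhb, its partner, was at 39.5 and 42.3 RPKM in miR-27 Tg replicates 1 and 2 and at 96.1 in replicate 3, against 42.8 to 47.5 in WT. Dlat was the steadiest member, between 8.85 and 11.3 RPKM over the 18 libraries.

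The pyruvate dehydrogenase kinases phosphorylate Pdha1 and so hold pyruvate back from oxidation. Pdk1 was at 99.2, 94.6 and 94.5 RPKM in WT, 42.1, 51.9 and 51.9 across cluster Tg, 96.3, 107 and 109 in miR-23 Tg, 58.8, 69.9 and 67.7 in miR-24 Tg, 40.1, 32.5 and 26.8 in miR-27 Tg, and 100, 99.5 and 92.4 in DKO. By mean level the order was miR-23 Tg, DKO, WT, miR-24 Tg, cluster Tg and miR-27 Tg. The first 3 overlapped, while the libraries of cluster Tg, miR-27 Tg and miR-24 Tg overlapped neither with those nor with each other. On the RPKM + 1 scale Pdk1 fell to 0.51 of WT in cluster Tg (log2 change -0.97, SE 0.13, limma adjusted p = 0.000419), to 0.35 in miR-27 Tg (-1.53, SE 0.13, adjusted p = 1.98e-05) and to 0.68 in miR-24 Tg (-0.55, SE 0.13, adjusted p = 0.0334). Against DKO it was lower by 0.99 in cluster Tg (log2 change -0.99, SE 0.13, adjusted p = 0.000275). Its differences from WT were 0.11 in miR-23 Tg (SE 0.13, adjusted p = 1) and 0.02 in DKO (SE 0.13, adjusted p = 1).

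The Pdk1 calls of cluster Tg against WT, miR-27 Tg against WT and cluster Tg against DKO held in all 26 alternatives run. Without the 2 libraries that stood apart the miR-27 Tg change was -1.39 (SE 0.11, limma adjusted p = 2.75e-05). The miR-24 Tg call was lost in 10 of 26, with changes from -0.60 to -0.48 and adjusted p up to 0.158, among them leaving out any 1 WT or miR-24 Tg library or miR-23 Tg column 3. The change in cluster Tg was smaller than the sum of those in the 3 single transgenics, by 0.99 on the log2 scale (SE 0.26). That comparison was added after the data were seen, and its limma adjusted p was 0.393 (unadjusted 0.00209), with 0 of 31 members and 0.00901% of all genes called. Whether cluster Tg and miR-27 Tg differ from each other in Pdk1 was not tested, beyond the libraries not overlapping.

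**Figure D5:**
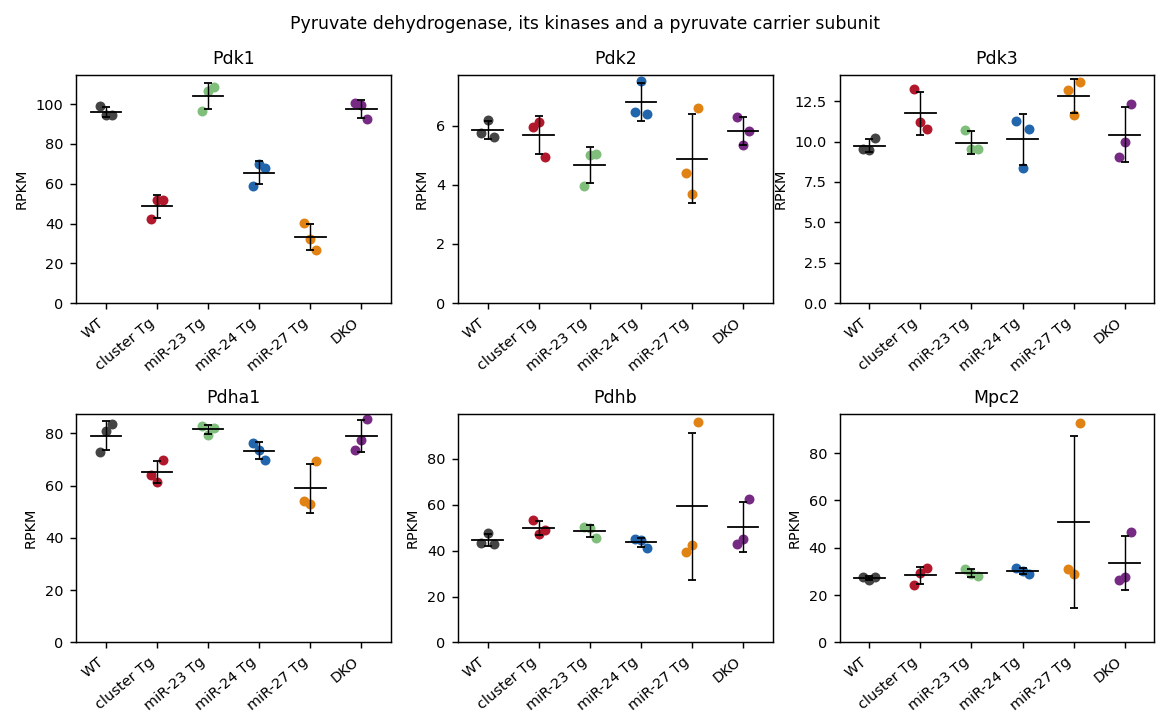
RPKM (y axis, from 0) of the 3 pyruvate dehydrogenase kinases, the E1 subunits Pdha1 and Pdhb, and the carrier subunit Mpc2 in each library by genotype; lines are means and bars SDs, n = 3. Pdk1 falls from 96.1 in WT to 48.6 with the cluster transgene and to 33.2 in miR-27 Tg, Pdk2 and Pdk3 stay low, and miR-27 Tg replicate 3 stands out for Pdhb and Mpc2.

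The other kinases were far less abundant. Pdk2 was at 5.76, 6.18 and 5.61 RPKM in WT, 5.96, 6.11 and 4.93 across cluster Tg, 3.95, 4.99 and 5.03 in miR-23 Tg, 6.47, 7.52 and 6.39 in miR-24 Tg, 4.38, 3.68 and 6.58 in miR-27 Tg, and 6.27, 5.36 and 5.82 in DKO. In miR-27 Tg replicates 1 and 2 lay below WT and replicate 3 above it. The difference there was -0.25 (SE 0.15, limma adjusted p = 0.311) over all libraries, and -0.45 (SE 0.12, adjusted p = 0.0205) without the 2 libraries that stood apart, in which fit Pdk2 was called lower. Pdk3 was at 9.54, 9.46 and 10.2 RPKM in WT, 13.3, 11.2 and 10.8 across cluster Tg, and 13.2, 11.7 and 13.7 in miR-27 Tg, all above WT, with differences of 0.24 (SE 0.13, limma adjusted p = 0.326) and 0.36 (SE 0.13, adjusted p = 0.0990). Pdk1 therefore made up 86.0% ± 0.523 of the summed level of the 3 kinases in WT, 73.5% ± 4.25 in cluster Tg, 79.4% ± 2.38 in miR-24 Tg, 64.8% ± 6.82 in miR-27 Tg, 87.7% ± 0.774 in miR-23 Tg and 85.7% ± 1.80 in DKO (SD, n = 3). The ratio of Pdk1 to its target Pdha1 was 1.22 ± 0.123 in WT, 0.747 ± 0.0933 in cluster Tg, 0.896 ± 0.109 in miR-24 Tg and 0.580 ± 0.180 in miR-27 Tg (SD, n = 3).

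The 3′ UTRs of the members were searched for the 7 bases that pair with each seed, in the longest 3′ UTR of each gene (GENCODE, GRCm38, the strand of the transcript). A match to miR-23a (AATGTGA) was found in 5 of 31 members with a 3′ UTR (16.1%), against 16.2% of 9851 genes tested. A match to miR-24 (CTGAGCC) was in 6 (19.4%), against 18.9%, and one to miR-27a (ACTGTGA) in 1 (3.23%), against 16.8%. The members' median 3′ UTR was 924 bases long, that of the genes tested 1127. The sites below are shown for the members that fell and for the member with the most matches, with the match in capitals.
Pdk1, match to miR-23a: gtaatggatggagacAATGTGAcaa
Pdha1, match to miR-27a: ccccaggcttggctcACTGTGAaga
Pfkl, the first of 3 matches to miR-24: tggtgatcttaaccgCTGAGCCatc

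In Pdk1 the match lay at bases 2021 to 2027 of a 3′ UTR of 3734 bases. This 3′ UTR held no match of these letters to miR-27a or miR-24, the microRNAs whose transgenics had lower Pdk1, and Pdk1 did not fall in miR-23 Tg. Pdha1, lower in miR-27 Tg, was the only member with a miR-27a match, at bases 786 to 792 of 1574. Pfkl held its 3 miR-24 matches from bases 537, 620 and 817 of 1263, and Hk1 and Aldoc held none of the matches. The remaining matches were to miR-24 in Pkm, Tpi1, Eno2, Slc16a1 and Slc16a3, and to miR-23a in Dlat, Ldhb, Pdk2 and Pfkfb3. In miR-23 Tg Dlat, Ldhb and Pdk2 lay wholly below WT, as did 8 of 31 members in all, and Pfkfb3 did not. No member was called there. A match is a description of the letters in the transcript, and its absence says only that these letters are not in this window.

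Hif1a, the hypoxia-inducible factor that drives many glycolytic genes and Pdk1 in low oxygen, was at 33.2, 35.9 and 34.1 RPKM in WT and 42.7, 42.1 and 38.5 in cluster Tg. It was at 64.7, 35.7 and 37.7 in miR-23 Tg, 36.3, 42.6 and 32.9 in miR-24 Tg, 36.3, 33.5 and 17.0 in miR-27 Tg, and 34.5, 37.6 and 26.7 in DKO. The cluster Tg libraries lay above WT, with a difference of 0.25 (SE 0.26, limma adjusted p = 0.717).

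Other genes around the pathway were counted from lists drawn up for comparison. Their calls are from the fit of all libraries, with the 2 that stood apart included. Of 19 HIF and hypoxia genes tested, 5 were higher and 0 lower in cluster Tg against WT, 1 was higher in miR-27 Tg (Epas1), and 0 were called in miR-23 Tg, miR-24 Tg or DKO. Over all genes tested, 5.63% were higher and 2.85% lower in cluster Tg, and 5.77% were higher in miR-27 Tg. Ndrg1, a hypoxia and stress response gene, was at 10.3, 10.9 and 8.04 RPKM in WT and 32.5, 32.9 and 29.2 in cluster Tg, and rose by 1.61 (SE 0.16, limma adjusted p = 5.55e-05). Egln3 was at 1.66, 1.73 and 1.08 RPKM in WT and 7.32, 5.41 and 3.10 in cluster Tg, and Vegfa at 1.53, 1.43 and 0.437 in WT and 10.3, 5.18 and 2.50 in cluster Tg. Both were well above WT and spread widely within cluster Tg. The prolyl hydroxylase Egln3, which marks HIF proteins for breakdown, rose by 1.29 (SE 0.29, limma adjusted p = 0.0135), and the growth factor Vegfa by 1.60 (SE 0.41, adjusted p = 0.0269). Epas1 (HIF-2 alpha) rose by 1.09 in cluster Tg (SE 0.31, limma adjusted p = 0.0459). Pdk1, itself a known HIF target, was lower in cluster Tg, and also in miR-27 Tg and miR-24 Tg, where 1 and 0 of the 19 were called. Any link between Pdk1 and these genes was not tested. The median of the 19 genes in cluster Tg was 0.10, against 0 for all genes tested.

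Of 9 pentose phosphate genes, G6pdx, the enzyme that draws glucose-6-phosphate out of glycolysis to make NADPH, was the only one called. It was at 16.8, 16.9 and 17.5 RPKM in WT, 7.22, 8.48 and 10.3 across cluster Tg, and 12.4, 7.15 and 9.66 in miR-24 Tg. G6pdx fell by 0.92 in cluster Tg (SE 0.17, limma adjusted p = 0.00337) and by 0.78 in miR-24 Tg (SE 0.17, adjusted p = 0.0183). Of 28 further regulators of pyruvate, glycogen and glycolysis tested, 4 were lower in cluster Tg, 1 in miR-24 Tg and 5 in miR-27 Tg, and 0 were higher in these 3 comparisons, where 2.85%, 1.26% and 3.18% of all genes tested were lower. Slc16a5, another monocarboxylate transporter family member, was at 19.4, 23.2 and 26.2 RPKM in WT, 3.79, 4.79 and 6.65 across cluster Tg, 6.19, 4.01 and 6.64 in miR-24 Tg, and 6.30, 11.7 and 7.55 in miR-27 Tg. It fell by 1.99 in cluster Tg (SE 0.23, limma adjusted p = 0.000123), by 1.87 in miR-24 Tg (SE 0.23, adjusted p = 0.000767) and by 1.36 in miR-27 Tg (SE 0.23, adjusted p = 0.00256). Pgm2, a phosphoglucomutase, fell by 0.50 in cluster Tg (SE 0.10, limma adjusted p = 0.00687) and by 0.67 in miR-27 Tg (SE 0.10, adjusted p = 0.00123).

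Of 16 TCA cycle genes, Suclg2, a succinyl-CoA ligase subunit, fell in cluster Tg by 0.35 (SE 0.09, limma adjusted p = 0.0324) and in miR-27 Tg by 0.32 (SE 0.09, adjusted p = 0.0482), and no other was called against WT. Of 19 Myc and mTORC1 genes tested, Myc, a driver of glycolytic gene expression in activated T cells, fell in miR-27 Tg. Myc was at 45.7, 53.3 and 51.7 RPKM in WT and 35.3, 37.1 and 25.0 in miR-27 Tg, a fall of 0.63 (SE 0.13, limma adjusted p = 0.00798), and no other gene of the list was called against WT. Of 10 isozymes used mainly in other tissues, only Pgam2, the muscle mutase, passed the filter, at 2.37 to 10.4 RPKM, and it was not called.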

How the data were processed

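The authors deposited 1 table of RPKM values. The submitters' processing notes name the mouse build mm9 and the tools HOMER and STAR 2.2.0c, with no role. No source used here gives the gene models, strand use or the counting of shared reads. Of 23953 rows 2 that repeated a symbol were dropped, and 27 symbols had turned into dates. The authors gave 2 miR-23 Tg columns the same name, and these are called columns 3 and 4. Relative depth, from the steps of low values, was lowest in miR-27 Tg replicate 3 (0.631) and highest in cluster Tg replicate 3 (1.46), and the RPKM values hold no read counts. Changes were fitted on log2(RPKM + 1) with limma 3.58.1 in R 4.3.3 (genotype as the term, all 18 libraries, trended variance), with genes at 1 RPKM or more in at least 3 libraries, and adjusted over 11099 genes. The median SE in cluster Tg against WT was 0.202. The script was tested on simulated data. Overlap between 3 and 3 libraries cannot give an exact permutation p below 0.1, so none is given. Members called in at least 1 comparison, and the most abundant of each role, have their values given; of the other lists at most 4 called genes per comparison are named. Members and lists were chosen with earlier results of these data known. Alternatives changed the pseudocount, filter, scaling, block and libraries.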

Additional observations from a re-analysis of the deposited data

How the results depend on the processing

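Of 390 pairs of a gene call and an alternative, 0 reversed and 86 lost the call, and 5 of 15 gene calls held throughout. Shares of all genes called in the same fit are given in brackets, and those for the compared genotypes alone further on. Members called in cluster Tg against WT numbered 4 (8.48%), and 2 under quantile normalisation (10.6%). They numbered 9 without the 2 libraries that stood apart, replicate 3 of DKO and of miR-27 Tg (29.2%). With the compared genotypes alone they numbered 8, and on leaving out 1 library 2 to 6 (3.68% to 18.5%). In miR-24 Tg against WT they numbered 2 (3.59%), with 0 under quantile normalisation (3.77%), 1 under median-ratio scaling (3.58%) and 0 with the miR-23 Tg columns averaged (2.78%). They numbered 9 without the 2 libraries (17.5%), 4 with the compared genotypes alone, and 0 to 4 on leaving out 1 (1.58% to 9.26%). In miR-27 Tg against WT they numbered 4 (8.95%), with 9 without the 2 libraries (19.9%), 1 with the compared genotypes alone, and 2 to 6 on leaving out 1 (4.81% to 10.9%). In cluster Tg against DKO they numbered 5 (11.3%), with 3 under quantile normalisation (12.7%) and 9 without the 2 libraries (27.7%). They numbered 2 with the compared genotypes alone, and 2 to 9 on leaving out 1 (4.98% to 24.4%). In the F test they numbered 9 (19%), with 21 without the 2 libraries (51%), 5 with the columns averaged (15.2%), and 4 to 17 on leaving out 1 (14.1% to 34.2%). The share called over the whole table thus moved too, and these counts are not read as particular to the members. In miR-23 Tg and DKO against WT, and against the sum of the single transgenics, the count was 0 in every alternative run. Genes called over the whole table without the 2 libraries numbered 3214 in cluster Tg, 1933 in miR-24 Tg and 2191 in miR-27 Tg, against 941, 398 and 993. With the compared genotypes alone the share called over all genes was 21.7% in cluster Tg, 8.8% in miR-24 Tg, 0.686% in miR-27 Tg and 9.75% in cluster Tg against DKO. Libraries with the same number did not deviate together in every pair (correlations from -0.111 to 0.580, median 0.0806, against -0.0382 for other numbers), and 8 of 15 correlated best with their own number. The fit with the replicate number as a block left out miR-23 Tg columns 3 and 4, which carry no number. It thus held 1 miR-23 Tg library. Only changes are quoted from it, though its calls are part of the counts over the alternatives. In this block fit Pdk1 differed from WT by -0.97 in cluster Tg and by -1.53 in miR-27 Tg. The cause of the shifts in the counts above was not tested. Genes near 1 RPKM, such as Pgam1 and Eno2, are measured with few reads, and the pseudocount bounds their changes.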
